A study of Mus musculus with 15 samples.

Results

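The miRNAs encoded within the mouse Hox clusters were examined in 15 libraries of small RNA, each made from total RNA of 1 tissue or embryo stage. The members were chosen by name: mmu-miR-10a-5p, mmu-miR-10a-3p, mmu-miR-10b-5p, mmu-miR-10b-3p, mmu-miR-196a-5p, mmu-miR-196b-5p and mmu-miR-615-3p, printed below without the species prefix. These are 7 of the 1558 mature miRNA names that had a read in any library, and all 7 were found. The adult tissues were placed in a head group (brain, eye and salivary gland, n = 3) and a trunk group (heart, kidney, liver, lung, smooth muscle, spinal cord, spleen, stomach and testis, n = 9). Whole embryos of 11, 15 and 17 days formed the embryo group (n = 3). The labels name no strain, sex, adult age, treatment or number of animals, and they do not say from which organ the smooth muscle came. The title of the 17-day library was followed where another of its labels gives 15 days. Since each tissue or stage was 1 library, no tissue has a replicate, and p-values measure the spread between tissues of a group, not between animals.

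Hox genes are transcription factors that set position along the body axis, and their order in each cluster matches the order of their expression from head to tail. The miR-10 genes lie toward the head end of the clusters, close to Hoxb4 and Hoxd4, and the miR-196 genes lie next to Hox genes of the posterior body. miR-196 is known to cleave Hoxb8 mRNA in the mouse embryo, and mir-615 is hosted by Hoxc5. A miRNA hairpin gives a strand from its 5p arm and one from its 3p arm, and the seed, bases 2 to 8 of a strand, is the main part that pairs with target mRNAs.

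The mature sequences show how closely the pairs resemble each other, which bears on every comparison of levels within a pair. They are printed 5′ to 3′ from the RefSeq table of GRCm38.p6, where all 7 names matched, with the seed in capitals.
miR-10a-5p: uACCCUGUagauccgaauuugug
miR-10b-5p: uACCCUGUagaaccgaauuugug
miR-10a-3p: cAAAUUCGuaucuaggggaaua
miR-10b-3p: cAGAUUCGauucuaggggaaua
miR-196a-5p: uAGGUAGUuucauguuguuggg
miR-196b-5p: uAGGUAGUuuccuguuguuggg
miR-615-3p: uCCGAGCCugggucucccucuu
With positions counted from 1 at the 5′ end, miR-10b-5p differed from miR-10a-5p by 1 substitution, U12A, outside the seed. The 3p strands of this pair differed by A3G, U9A and A10U, the first of them within the seed, so that the 5p strands share a seed and the 3p strands do not. miR-196b-5p differed from miR-196a-5p by A12C, again outside the seed. No other name of the RefSeq table had the seed of either 5p pair. How the submitters counted reads that fit both names of a pair is not given in the sources used here, so the split of reads within a pair is uncertain to that extent.

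The hairpins lie in all 4 Hox clusters (GRCm38). Mir10a is at chr11:96317165-96317274 on the plus strand, between Hoxb5 and Hoxb4, 993 bases before the start of Hoxb4. Mir10b is at chr2:74726070-74726137 on the plus strand, in an intron of annotated transcripts of Hoxd3 and Hoxd4. miR-196a-5p comes from 2 loci with the same mature strand, Mir196a-1 at chr11:96265164-96265265, between Hoxb13 and Hoxb9, and Mir196a-2 at chr15:102973350-102973434, between Hoxc10 and Hoxc9 and within an intron of a long Hoxc5 transcript. Mir196b is at chr6:52230081-52230165 on the minus strand, within exon and intron sequence of annotated Hoxa9 transcripts and 1032 bases from Hoxa10. Mir615 is at chr15:103014910-103015001 on the plus strand in an intron of Hoxc5.

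**Figure D1:**
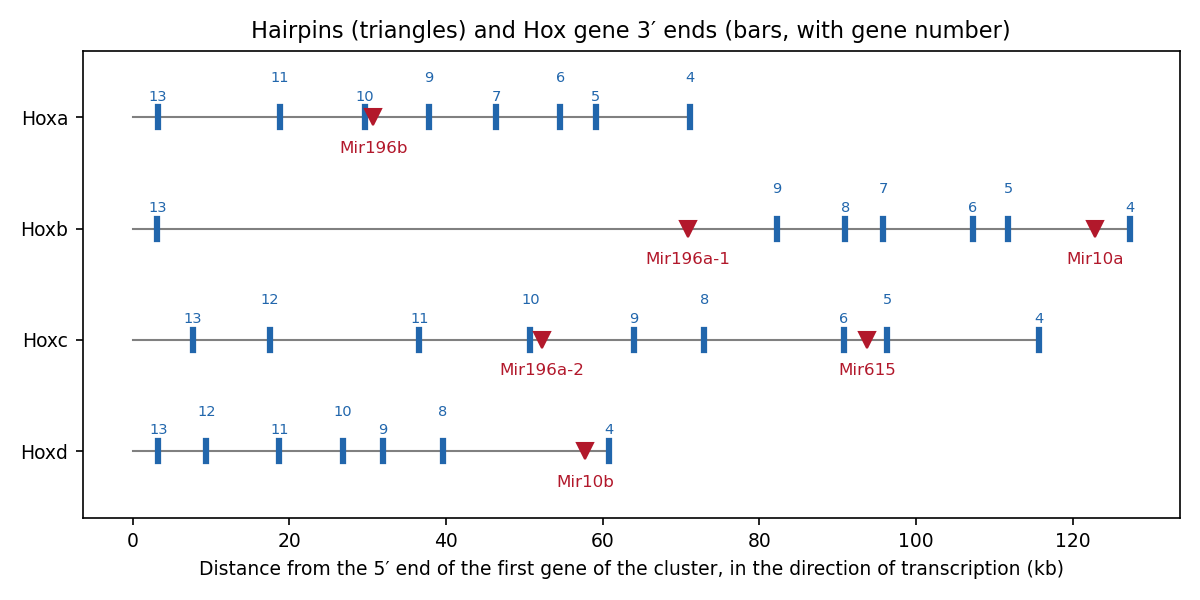
Map of the hairpins (triangles) and of the 3′ ends of Hox genes 4 to 13 (bars with the gene number) in the 4 clusters, in kb from the 5′ end of the first gene of each cluster in the direction of transcription. Mir196a-1, Mir196a-2 and Mir196b lie between the bars of genes 13 or 10 and 9, and Mir10a and Mir10b lie before the bar of gene 4.

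Levels are given as CPM, reads of a name per 1000000 reads of all miRNA names of its library, with exact Poisson intervals of 95% that cover counting error only. Brain was the deepest library with 3161463 reads, and testis the shallowest with 148052, after stomach with 922137. As CPM, 3 reads amounted to 20.3 in testis and 0.949 in brain, so testis values are the least precise. Of 11 lists of marker miRNAs, those for neuron, eye, heart, liver, gland, leukocyte and germ cell were highest in the library with the matching label. The erythroid list was highest in lung, and the epithelium list in salivary gland. The smooth muscle list was highest in stomach, at 267059 CPM, with the library labelled smooth muscle second at 155890 CPM. That library also had the highest sum of the kidney and gut epithelium list, 279409 CPM, against 23407 CPM in kidney, and the part of this in its values was not tested. In tissue RNA, fewer cells of a type and less miRNA per cell cannot be told apart.

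All 7 members were far more abundant in spinal cord than in brain, although both are neural tissue, with neuron marker sums of 113425 CPM in spinal cord and 209515 CPM in brain. They made up 3.78% of all miRNA reads in spinal cord, 3.89% in kidney, 1.01% in testis, 0.413% in lung, 0.297% in stomach and 0.0227% in brain. Each of the 7 was at least 4-fold higher in spinal cord than in brain, a step that 3.61% of the 693 names tested made (on log2(CPM + 1), as for all fold thresholds here). The median difference of the members was 7.49 on this log2 scale, against 0.19 over all names tested. The same threshold over brain was passed by 7 members in kidney (16.3% of names), 7 in testis (25.8%), 4 in stomach (15.7%) and 2 in lung (15%). Kidney passed the threshold over lung for 7 members (7.22% of names).

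miR-10a-5p was present in every library and lowest in the head. It had 99.95 CPM in brain, 32.3 in eye and 305 in salivary gland. It had 6495, 2949 and 2395 CPM in the 11-, 15- and 17-day embryos. In trunk tissues it ran from 639 CPM in heart to 21359 in kidney, with a median of 2252. The 3 head libraries lay below all 9 trunk libraries, without overlap.

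Along the body axis miR-10a-5p had 6548 CPM in spinal cord, 3838 in lung, 2252 in stomach, 21359 in kidney and 1472 in testis, against 99.95 in brain. Kidney, the highest library, stood 3.26-fold above spinal cord (3.20 to 3.33). Spinal cord was 65.5-fold above brain (95% interval of counting error 58.6 to 73.5), and lung was 38.4-fold above it (34.3 to 43.1). With TMM scaling between libraries, as in the edgeR tests below, spinal cord was 54.7-fold above brain. The counting intervals do not cover this choice of scaling. Of the 14 steps between neighbours in the order of its 15 levels, the intervals overlapped at 3, among them spinal cord and the 11-day embryo. Liver had 1818 CPM, spleen 1685 and smooth muscle 5187.

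miR-10b-5p had another order, with spinal cord first and liver last. It had 115 CPM in brain, 160 in eye and 1253 in salivary gland. It had 7874, 3775 and 3028 CPM in the 11-, 15- and 17-day embryos. Trunk tissues ran from 96.2 CPM in liver to 28388 in spinal cord, with a median of 599.7. The groups overlapped, since liver lay below all head libraries.

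In spinal cord miR-10b-5p was 246-fold above brain (222 to 273), or 205-fold with TMM scaling, and kidney with 13148 CPM and testis with 8132 CPM came next. Lung, with 211 CPM, was 1.83-fold above brain (1.60 to 2.09), and stomach, with 599.7 CPM, was 5.19-fold above it (4.54 to 5.94). Kidney exceeded lung 62.3-fold for miR-10b-5p (57.5 to 67.6) and 5.56-fold for miR-10a-5p (5.45 to 5.69). Of its 14 neighbouring steps, 4 had overlapping intervals.

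The 3p strands of both hairpins followed their 5p strands at much lower levels. miR-10a-3p had 332 CPM in kidney, 88.5 in spinal cord and 69.7 in lung, against 2.21 in brain from 7 reads. miR-10b-3p had 301 CPM in spinal cord, 128 in kidney and 40.5 in testis from 6 reads, against 2.53 in brain from 8 reads. In liver miR-10b-3p had no read, with an exact Poisson upper limit of 2.12 CPM (3 reads there amount to 1.73 CPM). As a description over the 15 libraries, log2(CPM + 1) of the 5p and 3p strands had a Pearson r of 0.98 for mir-10a and 0.97 for mir-10b. The strands of a hairpin share their precursor and their library.

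The miR-196 strands were near the limit of detection in the head and highest in the 11-day embryo and kidney. miR-196a-5p had 0.633 CPM in brain, 0.394 in eye and 3.36 in salivary gland, from 2, 1 and 7 reads. It had 1752, 1119 and 374 CPM in the 11-, 15- and 17-day embryos. In trunk tissues it ran from 0.381 CPM in heart, 1 read, to 1480 in kidney, with a median of 20.7. The trunk was divided: kidney, spinal cord (448 CPM), testis (128), smooth muscle (75.2) and spleen (20.7) lay above the head libraries, while heart, liver, lung and stomach had 2 reads or fewer.

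miR-196b-5p had 1.58 CPM in brain, 0.789 in eye and 2.40 in salivary gland, from 5, 2 and 5 reads. It had 2860, 1457 and 1009 CPM in the 11-, 15- and 17-day embryos. Trunk levels ran from 3.25 CPM in stomach to 2191 in kidney, with a median of 9.09. The head libraries lay below all trunk libraries, but the intervals of stomach and salivary gland, at 3 and 5 reads, overlapped widely. Spinal cord had 462 CPM and testis 209 CPM from 31 reads, and the next trunk library, spleen, had 22.9 CPM.

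For these rare strands the ratios to brain rest on few reads. Spinal cord over brain was 707-fold for miR-196a-5p, with a counting interval of 195 to 5850, and 292-fold for miR-196b-5p, with 125 to 902. Kidney exceeded spinal cord 3.31-fold for miR-196a-5p (3.06 to 3.58) and 4.74-fold for miR-196b-5p (4.41 to 5.10). Intervals of neighbours in the order of levels overlapped at 7 of 14 steps for each strand.

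miR-615-3p, the strand of the Hoxc5 intron, was highest in the 11-day embryo and spinal cord. It had 4.43 CPM in brain, 1.18 in eye and 1.92 in salivary gland, from 14, 3 and 4 reads. It had 1826, 556 and 560.3 CPM in the 11-, 15- and 17-day embryos. The trunk ranged from no read in heart to 1603 CPM in spinal cord, with a median of 60.8. In heart the exact Poisson upper limit was 1.41 CPM (3 reads there amount to 1.14 CPM). Kidney had 263 CPM, 6.10-fold less than spinal cord, so that kidney and spinal cord had the opposite order from the miR-196 strands. Smooth muscle had 85.6 CPM, stomach 68.3 and testis 60.8 from 9 reads, while lung, liver and spleen had 2.30 to 2.70 CPM, within the range of the head.

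**Figure D2:**
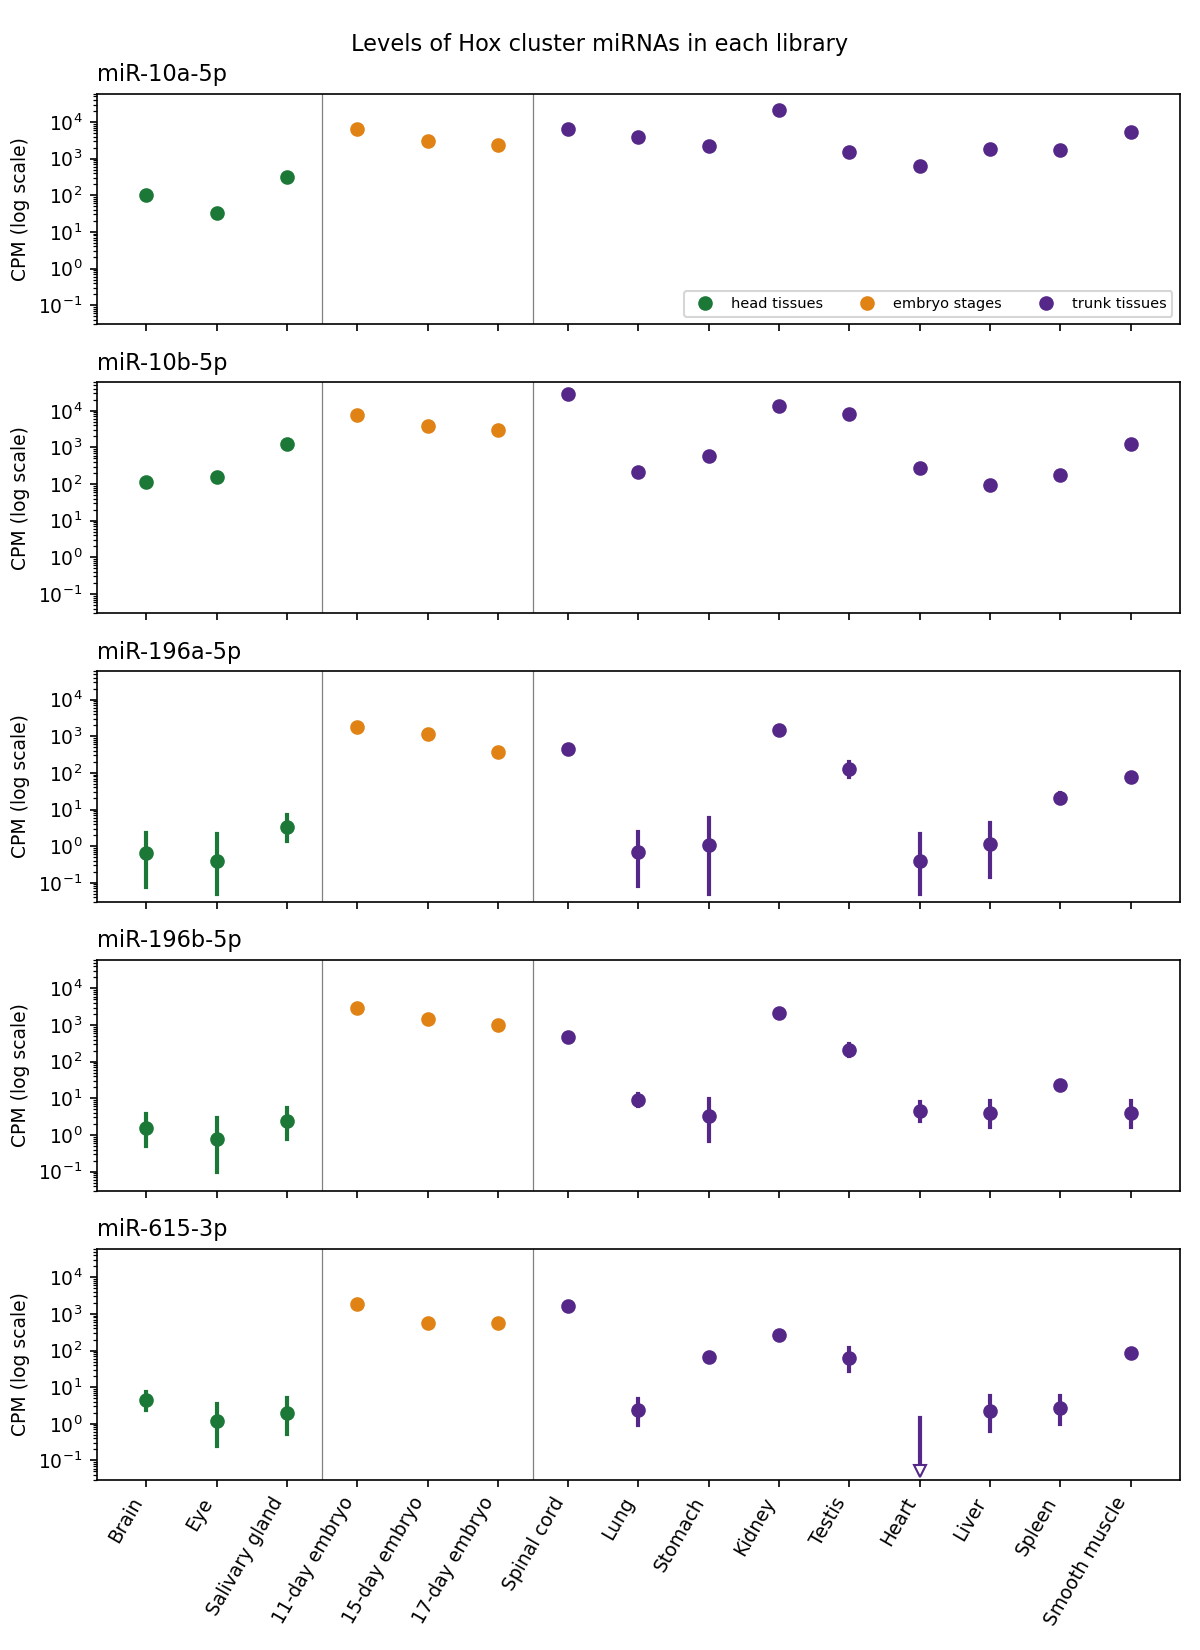
CPM on a log axis of 5 members in each library, with exact Poisson intervals of 95% (counting error only) as vertical lines, in head tissues, embryo stages and trunk tissues. The open triangle marks no read, and intervals are drawn down to 0.05 CPM. miR-10a-5p lay between 32.3 and 305 CPM in the head and between 639 and 21359 CPM in the trunk, while miR-615-3p had 1603 CPM in spinal cord and no read in heart.

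Across groups, no member passed the test of head against trunk. The test was the quasi-likelihood test of edgeR on TMM-scaled counts of all 693 names that passed the filter on low counts, with Benjamini-Hochberg adjustment. All 7 estimates were below 0, but 0 of 7 members were called lower. Over all names 3 were called (0.433%), all of them higher in the head, and 0 (0%) were called lower. Missing this threshold does not show that levels were alike. At an unadjusted p under 0.05, 5 of the 7 members were lower in the head, against 38 names in all (5.48%), and 0 were higher (6.35% of names were).

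The log2 fold change of head over trunk was -4.96 ± 1.20 (SE) for miR-10a-5p, with an adjusted p of 0.089 in edgeR. miR-196b-5p had -7.24 ± 2.49 and miR-196a-5p -6.89 ± 2.66, both with an adjusted p of 0.41 in edgeR. miR-615-3p had -6.13 ± 2.36 with the same adjusted p in edgeR. miR-10b-5p had -2.86 ± 1.61 (edgeR adjusted p = 0.47), the smallest change among the 5 main strands. The median over the 7 members was -4.96, against -0.09 over all names tested.

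The count of calls depended on the tool and on spinal cord. DESeq2 called 5 members lower in the head, miR-10a-5p, miR-10a-3p, miR-196a-5p, miR-196b-5p and miR-615-3p, among 16 of 649 names (2.47%). Without spinal cord, edgeR called 158 names, higher or lower, in place of 3. Among these, miR-10a-5p (edgeR adjusted p = 0.0086) and miR-10a-3p (edgeR adjusted p = 0.011) were called lower. Their calls thus came with a rise in calls over all names and do not set the members apart. In CPM all head libraries lay below all trunk libraries for 2 of 7 members, miR-10a-5p and miR-196b-5p, and for 0.577% of all names.

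The balance of miR-10a and miR-10b changed sides between tissues. The miR-10a share of the 5p reads of the pair was 46.4% in brain, 16.8% in eye and 19.6% in salivary gland. It was 45.2%, 43.9% and 44.2% in the 11-, 15- and 17-day embryos. Trunk shares ran from 15.3% in testis to 95.0% in liver, with a median of 79.0%. Shares are ratios within a library and do not depend on scaling between libraries.

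By the exact Clopper-Pearson intervals of 95%, 7 libraries lay above 50% and 7 below, and brain was undecided at 42.6 to 50.2%. Those above were liver, lung (94.8%), spleen (90.7%), smooth muscle (80.2%), stomach (79.0%), heart (69.5%) and kidney (61.9%). Those below were the 3 embryos, salivary gland, eye, spinal cord (18.7%) and testis. Spinal cord and testis thus lay with eye and salivary gland, and apart from the other 7 trunk tissues. The miR-10a-5p level differed 1.71-fold between spinal cord and lung, while miR-10b-5p differed 134-fold.

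**Figure D3:**
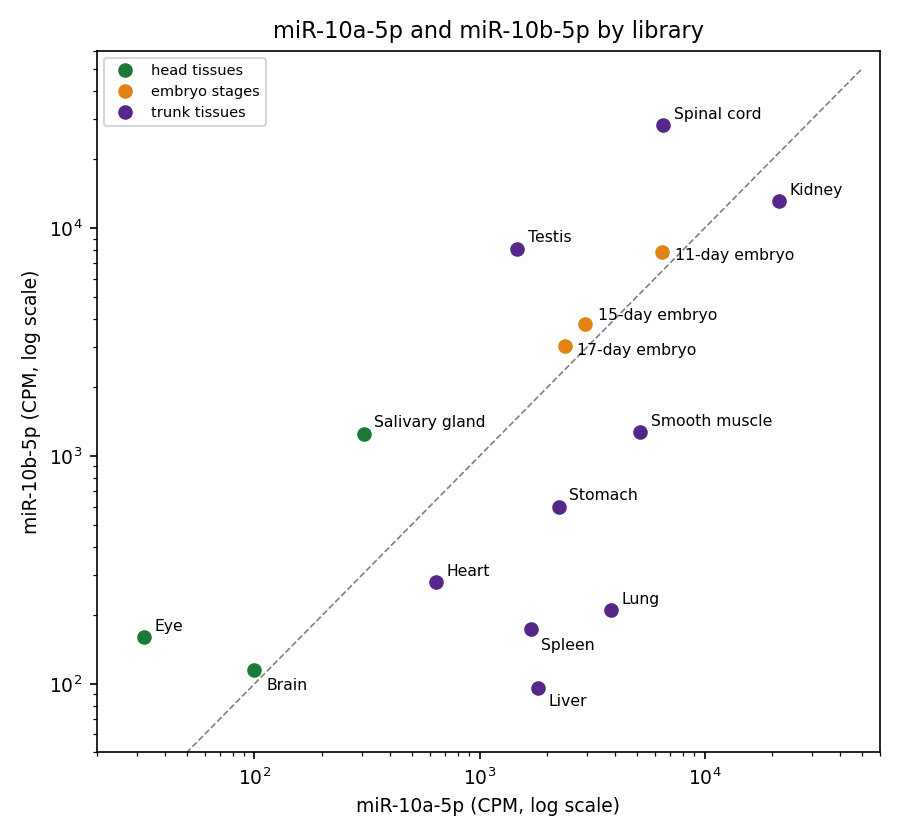
miR-10a-5p against miR-10b-5p in CPM, both on log axes, with 1 point per library and a dashed line where both are equal. Points below the line, such as lung with 3838 and 211 CPM, hold more miR-10a-5p, and points above it, such as spinal cord with 6548 and 28388 CPM, hold more miR-10b-5p.

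The 3p strands, which differ at more positions, gave a similar order of tissues. In the 11 libraries with at least 20 reads of the 3p pair, the Pearson r between both shares was 0.98, as a description of libraries in which both strands come from the same precursors. The 3p share was 21.3% in salivary gland, 60.1% in the 11-day embryo, 63.2% in the 15-day embryo and 51.4% in the 17-day embryo. In trunk tissues it was 22.7% in spinal cord, 72.2% in kidney and 84.6% to 100% in the 5 others. It was above the 5p share in 11 of 11 libraries, and in 4 of 11 its interval held the 5p value. By 3p reads the 11- and 15-day embryos thus lay above 50%, while by 5p reads they lay below.

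**Figure D4:**
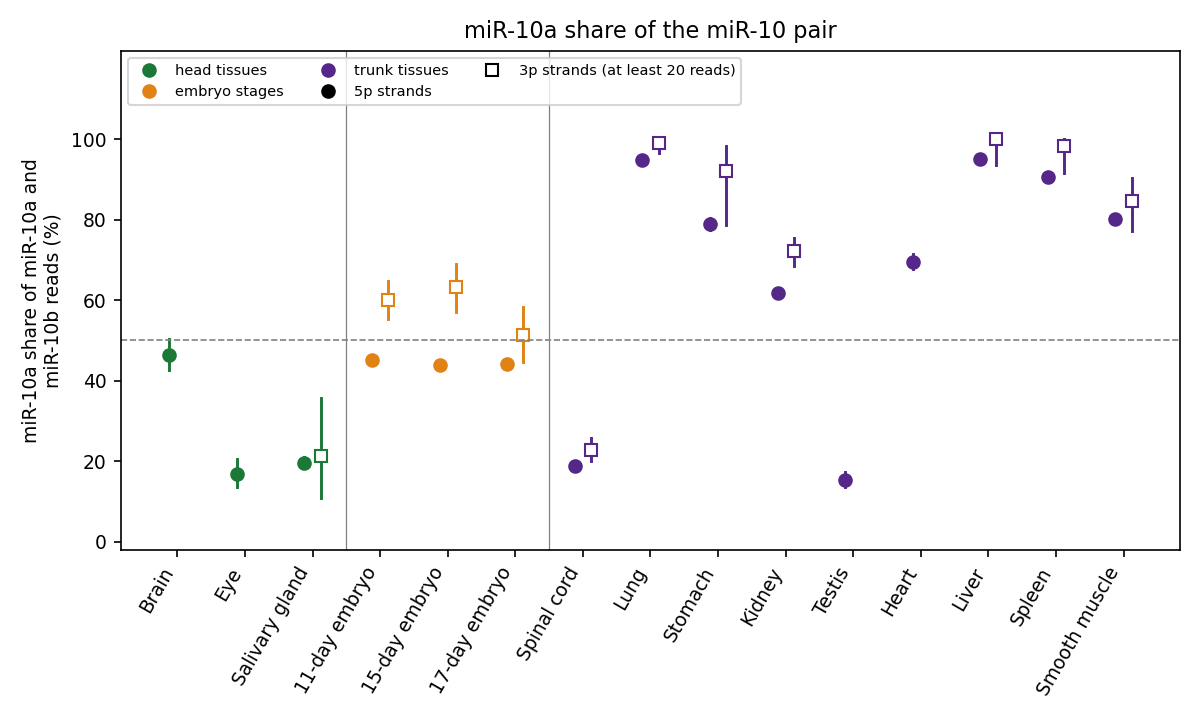
miR-10a share of the reads of miR-10a and miR-10b, in percent, by 5p strands (filled circles) and by 3p strands (open squares, libraries with at least 20 reads), with exact 95% intervals. Spinal cord and salivary gland lie near 20% by both strands, and lung and liver above 94% by both.

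The difference between groups did not pass the test. The mean 5p share was 27.6% ± 16.3 in the head (SD, n = 3) and 67.2% ± 30.5 in the trunk (SD, n = 9), -39.6 points apart (two-sided exact permutation p = 0.073). Adjusted over the 9 tests of shares it was 0.16. Without spinal cord the adjusted p of this exact test was 0.044, and without testis it was 0.041. Embryos averaged 44.4% ± 0.7 (SD, n = 3), -22.8 points from the trunk (exact permutation p = 0.24, adjusted 0.30). By 3p reads the embryo differed by -23.1 points (exact permutation p = 0.20, adjusted 0.30), by -32.8 points with an adjusted exact p of 0.036 without spinal cord, and by -11.4 points with an adjusted exact p of 0.60 where at least 100 reads were required. For the head 1 library had enough 3p reads, and 1 against 7 cannot give a p below 0.125.

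Both miR-10 hairpins were used almost wholly through their 5p arm, with small differences between groups. The 5p share of mir-10b was 97.9% in brain, 98.8% in eye and 98.6% in salivary gland, and 98.5%, 98.8% and 98.7% in the 11-, 15- and 17-day embryos. In the trunk it ran from 98.95% in spinal cord to 100% in liver, with a median of 99.5%. The head mean was 98.4% ± 0.5 (SD, n = 3) against a trunk mean of 99.4% ± 0.4 (SD, n = 9), -0.99 points apart. The exact permutation p was 0.0045, which no arrangement of 3 against 9 can go below (220 splits). Embryos averaged 98.7% ± 0.1 (SD, n = 3), -0.75 points from the trunk (exact permutation p = 0.0091). All 3 head libraries and all 3 embryo libraries lay below all 9 trunk libraries, but the counting interval of each, other than the 11-day embryo, overlapped that of spinal cord. The head values rest on 8, 5 and 37 reads of miR-10b-3p in brain, eye and salivary gland. Hairpins outside the Hox clusters were not examined in this way, so these values do not show a trait particular to mir-10b.

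For mir-10a the 5p share was 97.3%, 97.4% and 98.2% in the 11-, 15- and 17-day embryos, with a mean of 97.6% ± 0.5 (SD, n = 3) against 98.5% ± 0.4 in the trunk (SD, n = 9). The embryos were -0.87 points from the trunk (exact permutation p = 0.014). In the head the mean was 98.4% ± 0.5 (SD, n = 3), which differed from the trunk by -0.15 points (exact permutation p = 0.58). The 3 lower p-values were each 0.041 after adjustment over the 9 exact tests, close to the threshold of 0.05. All 3 calls were lost on a log2 ratio scale, with adjusted exact p-values of 0.082 to 0.14. Each was also lost without any 1 of brain, eye, heart, liver, lung, smooth muscle, spleen or stomach, with adjusted exact p-values of 0.055 to 0.11. The embryo tests do not use brain or eye. Without either, the embryo calls were lost only through the adjustment shared with the head tests, and their unadjusted exact p-values stayed the same. The embryo calls were lost without any 1 embryo as well, with adjusted exact p-values of 0.055 to 0.20, and that of mir-10a without kidney (0.073).

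The mix of the miR-196 strands differed most in the library labelled smooth muscle. The miR-196a-5p share of both 5p strands was 38.0%, 43.4% and 27.0% in the 11-, 15- and 17-day embryos. In trunk libraries with at least 20 reads it was 94.9% in smooth muscle (89.8 to 97.9), 49.2% in spinal cord, 47.4% in spleen, 40.3% in kidney, 38.0% in testis and 6.90% in lung (0.846 to 22.8). No head library reached 20 reads. The mean was 36.2% ± 8.4 in embryos (SD, n = 3) and 46.1% ± 28.4 in the trunk (SD, n = 6), with an exact permutation p of 0.57. The difference of -9.97 points was -0.21 without smooth muscle, -5.41 without the 17-day embryo and -17.8 without lung, and it was -0.69 and -25.3 where at least 1 or 100 reads were required.

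The 2 loci of miR-196a-5p give the same 5p strand but different 3p strands, so the 3p reads tell the loci apart. miR-196a-1-3p of the Hoxb cluster and miR-196a-2-3p of the Hoxc cluster had 3 and 45 reads in the 11-day embryo, 2 and 74 in the 15-day embryo, and 3 and 61 in the 17-day embryo. Kidney had 14 and 50 reads, spinal cord 3 and 11, and smooth muscle 6 and 0. The miR-196a-1 share was 21.9% in kidney (12.5 to 34.0), above the 2.63% to 6.25% of the embryos. The kidney interval overlapped those of the 11-day (1.31 to 17.2) and 17-day (0.977 to 13.1) embryos, but not that of the 15-day embryo (0.320 to 9.18). The 6 of 6 reads in smooth muscle have an interval of 54.1 to 100%. mir-196b had a 5p share of at least 98.4% in the 8 libraries with at least 20 reads. mir-615 was used through its 3p arm, with a 5p share of at most 1.33% in the 7 libraries with at least 20 reads. Of the 4 other strands of these hairpins 3 passed the filter on low counts, and 0 of the 3 were called in either edgeR comparison.

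In whole embryos all 7 members were lower at 17 than at 11 days. miR-10a-5p had 6495, 2949 and 2395 CPM at 11, 15 and 17 days, and miR-10b-5p had 7874, 3775 and 3028 CPM. miR-196a-5p had 1752, 1119 and 374 CPM, and miR-196b-5p had 2860, 1457 and 1009 CPM. miR-615-3p had 1826, 556 and 560.3 CPM, with overlapping intervals at the last 2 stages. The 3p strands had 179, 79.6 and 42.7 CPM for miR-10a-3p and 119, 46.4 and 40.4 CPM for miR-10b-3p.

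**Figure D5:**
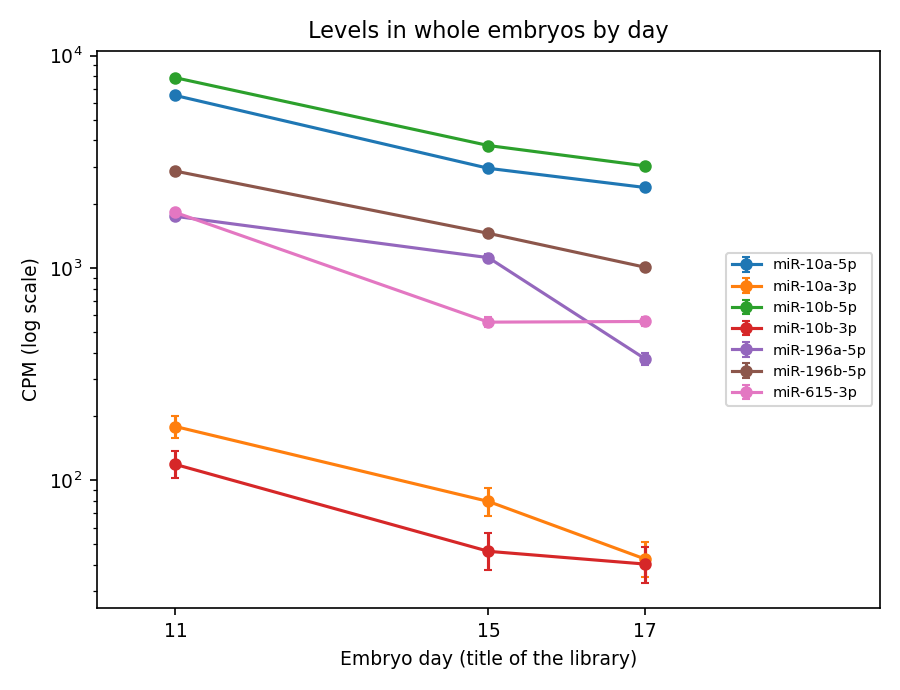
CPM on a log axis of the 7 members in whole embryos at 11, 15 and 17 days, with exact Poisson intervals of 95% as bars and 1 library per day. Each line joins a member's 3 libraries; miR-196a-5p falls below miR-615-3p at 17 days, with 374 against 560.3 CPM.

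At 17 days the level was at least 2-fold lower than at 11 days for 7 of 7 members, as it was for 25.5% of the 693 names. At 15 days it was at least 2-fold lower than at 11 days for 5 members (21.6% of names), all but miR-196a-5p and miR-196b-5p. From 15 to 17 days 1 member, miR-196a-5p, was at least 2-fold lower (4.33% of names). It was 2.99-fold lower at 17 than at 15 days, whereas miR-196b-5p was 1.44-fold lower. Between 11 and 17 days miR-196a-5p was 4.68-fold lower, miR-10a-3p 4.20-fold, miR-615-3p 3.26-fold and miR-10b-5p 2.60-fold. CPM fell at each step for 6 of 7 members, all but miR-615-3p, and for 29.3% of names. For miR-10b-3p the intervals at 15 and 17 days overlapped.

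With TMM scaling the members were 2.45- to 4.42-fold lower at 17 than at 11 days. At 15 days miR-10a-5p, miR-10a-3p and miR-10b-5p were then 1.89-, 1.93- and 1.79-fold lower than at 11 days, under the 2-fold mark. With 1 library per stage these differences have no replicate check. Over the same days the summed level of the liver markers reached 12553 CPM at 17 days, the second highest of all libraries after liver, and neuron markers had 73808, 71859 and 39828 CPM. Their part in the result was not tested.

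No member passed the edgeR test of embryo against trunk. Of the 7 members 0 were called, against 22.1% of 693 names, of which 11.5% were called higher and 10.5% lower. At an unadjusted p under 0.05, 0 members were higher or lower in edgeR, against 17.3% and 19.8% of names. DESeq2 called 0 members, against 17.6% of its 649 names higher and 24.8% lower. At an unadjusted p under 0.05 in DESeq2, 1 member was higher (20.2% of names) and 0 were lower (27.5%). That member was miR-615-3p, with a log2 fold change of 2.74 in DESeq2 (DESeq2 adjusted p = 0.069). The log2 fold change of embryo over trunk was 1.56 ± 1.47 (SE) for miR-196b-5p (edgeR adjusted p = 0.44) and 1.26 ± 1.62 for miR-196a-5p (edgeR adjusted p = 0.57). miR-615-3p had 1.26 ± 1.50 and miR-10a-5p -1.58 ± 0.97, with edgeR adjusted p-values of 0.54 and 0.23. Without kidney miR-196b-5p was called higher in embryos (3.61, edgeR adjusted p = 0.038), and miR-196a-5p had 2.83 and miR-10a-5p -1.01, neither called. Over all names, calls in either direction ran from 82 to 283 when 1 library was left out, against 153 with all libraries. The call of miR-196b-5p is therefore not read as setting it apart from other names. miR-615-3p had 2.81 without spinal cord. Without the 11-day embryo miR-196b-5p had 0.89, miR-196a-5p 0.61 and miR-615-3p 0.48. Scaling to total counts moved the median of all names to 1.03, against -0.19 with TMM, and split the calls as 133 higher and 24 lower, against 80 and 73. The estimates of miR-10a-3p and miR-10b-3p then turned positive, at 0.39 and 0.32, below that median, against -0.83 and -0.47 with TMM.

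The relatives of the miR-10 family outside the Hox clusters, miR-99a-5p, miR-99b-5p and miR-100-5p, had head levels close to those of the trunk. They share the seed ACCCGUA, which differs from that of miR-10. miR-99a-5p had 5985 CPM in brain, 7219 in eye and 5696 in salivary gland, against 907 to 10031 CPM in the trunk, with a median of 3414. The log2 fold change of head over trunk was 0.20 ± 0.69 for miR-99a-5p, 0.13 ± 0.55 for miR-99b-5p and -0.22 ± 0.73 for miR-100-5p (SE), and none passed the edgeR test (adjusted p of 0.87 to 0.90). Single libraries differed more: miR-100-5p was 3.52-fold higher in spinal cord than in brain, but 3.71-fold lower in kidney than in brain. In spinal cord miR-99a-5p was 1.50-fold and miR-99b-5p 1.14-fold above brain. From 11 to 17 days miR-99b-5p was 1.90-fold and miR-100-5p 1.79-fold lower, while miR-99a-5p was 1.15-fold higher. The difference between the relatives and the members was not tested.

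The miR-196 strands and miR-615-3p were among the names that varied most between libraries. By the SD of log2(CPM + 1) over the 15 libraries, miR-196a-5p ranked 6 of 693 with 4.14, miR-196b-5p 9 with 4.03 and miR-615-3p 18 with 3.81, against a median of 1.78. The miR-10 strands ranked lower, from 140 for miR-10b-5p (2.73) to 239 for miR-10a-3p (2.20).

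Likeness was read from log2(CPM + 1) over the 15 libraries, among the 693 names, leaving out the other strands of a name's own hairpin. The 3 names most like miR-10b-5p were then other members: miR-196a-5p with a Pearson r of 0.87, miR-615-3p with 0.86 and miR-196b-5p with 0.83. miR-196a-5p and miR-196b-5p were each other's nearest name (0.94), and miR-615-3p was nearest to miR-196a-5p (0.89). miR-10a-5p was nearest to miR-28c (0.68), then to miR-196a-5p (0.68) and miR-196b-5p (0.67), and its r with miR-10b-5p was 0.62. These values describe 15 libraries that share depth and tissue makeup, and no test was made.

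Hox mRNAs are known targets of these miRNAs, and the 3′ UTR annotation of GENCODE was searched for their seed matches on the mRNA strand. The best-known site, in Hoxb8 on chromosome 11, lies at base 418 of an 845-base 3′ UTR and is shown because it nearly matches the whole of miR-196. It is printed 5′ to 3′ as DNA, with the base of its G:U pair in capitals.
Hoxb8 site: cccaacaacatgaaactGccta
With miR-196a-5p, printed above, it forms 21 Watson-Crick pairs and 1 wobble pair, at position 5 of the miRNA. With miR-196b-5p it forms 20 Watson-Crick pairs and the same wobble pair, and position 12, the base that differs in the pair, is unpaired. The wobble pair lies in the seed, so this site is not counted by a search for exact seed matches.

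The exact match to bases 2 to 8 of miR-196, ACTACCT, occurred in the 3′ UTR of 9 of 39 Hox genes (23.1%), against 6.10% of 21022 protein-coding genes. The match to miR-10 5p strands, ACAGGGT, occurred in 4 of 39 (10.3%) against 12.5% of all genes. The match to miR-615-3p, GGCTCGG, occurred in 1 of 39 (2.56%) against 2.30%. Median 3′ UTR lengths were 966 and 961 bases. A match is a description of sequence and not a measurement of binding, and no mRNA was measured here.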

How the data were processed

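Small RNA was measured by AQ-seq, a protocol with randomized adapter ends that is meant to lower ligation bias, in 15 libraries of a commercial RNA panel. The authors deposited whole-number read counts per mature miRNA name and library. The submitters' processing notes name bcl2fastq 1.8.4, cutadapt, BWA, bedtools and the build mm10. What each did, the miRNA release and how reads that fit several names were counted is not given in the sources used here. A name not listed in a library was taken as 0. Synthetic spike-ins are described in the labels' protocols, and none was used for scaling here.

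Groups were set from the tissue names. The members, groups, marker lists and tests were chosen with earlier results of these data known. Named were all members, the other strands of their hairpins, the miR-99 and miR-100 relatives, and the 3 names outside its own hairpin most like each main strand. CPM are reads per 1000000 listed reads, unscaled, with exact Poisson intervals of 95%; shares have Clopper-Pearson intervals and needed at least 20 reads. Fold thresholds (4 for tissues, 2 for stages) used log2(CPM + 1). Intervals were computed with scipy 1.17.1. Abundance was tested with edgeR 4.0.16 in R 4.3.3 (TMM, filterByExpr, quasi-likelihood, 15 libraries in 1 fit, 693 names, adjusted p under 0.05). Shares were tested with exact permutation tests over all splits, written in Python 3.11.15. They were adjusted over 9 tests because the head had too few miR-196 reads for the 10 planned. The edgeR fit and the permutation test were also run on simulated data. The outcome is not reported here, and no result rests on it. Reads removed by the filter were 13.1% in testis and at most 0.215% elsewhere. Both group comparisons share the 9 trunk libraries and are not compared with each other. Alternatives were other scalings, no filter, DESeq2 1.42.0, the 12 libraries of both groups, other read minimums, log2 ratios, spinal cord moved to the head group, each library left out, and, chosen after seeing the data, testis and smooth muscle both left out.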

Additional observations from a re-analysis of the deposited data

Results flagged for a closer look

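Within the 9 trunk tissues, 1 library stood apart from the rest for 8 of the 12 measures examined by Dixon's criterion. The chance rate of this criterion, about 1 in 20 groups, holds for normally distributed values, and CPM were not log-transformed. The count of 8 is therefore not set against that rate. In 4 of the 8 measures the library was kidney. miR-10a-5p had 21359 CPM in kidney, with spinal cord next at 6548 CPM, and miR-10a-3p had 332 CPM, with spinal cord next at 88.5 CPM. miR-196a-5p had 1480 CPM in kidney and 448 CPM in spinal cord, the next library. miR-196b-5p had 2191 CPM in kidney and 462 CPM in spinal cord, the next library.

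In the other 4 it was spinal cord. miR-10b-5p had 28388 CPM there, with kidney next at 13148 CPM, and miR-10b-3p had 301 CPM, with kidney next at 128 CPM. miR-615-3p had 1603 CPM in spinal cord and 263 CPM in kidney, the next library. The miR-10a share of 3p reads was 22.7% in spinal cord, the lowest of 7 trunk libraries, with kidney next at 72.2%. The measures are not independent, since both strands of a hairpin and both strands of a pair enter.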

How the results depend on the processing

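In the test of head against trunk, 3 names were called, and 5 with RLE size factors, 5 with no filter, 0 with the 12 libraries of both groups, 0 without testis and smooth muscle, 204 with spinal cord moved to the head, 29 with DESeq2 and 0 to 158 when 1 library was left out. Members called lower numbered 5 with DESeq2 and 0 to 2 when 1 library was left out. With spinal cord moved to the head, the log2 fold changes of miR-10b-5p, miR-10b-3p and miR-615-3p were above 0, at 1.09, 1.52 and 2.19. The other 4 members stayed below 0 under all 22 alternatives. In the test of embryo against trunk, 153 names were called, and 99 with no filter, 275 with DESeq2 and 82 to 283 when 1 library was left out. Members called higher were 0 to 1 when 1 library was left out. miR-10a-3p (0.39) and miR-10b-3p (0.32) were above 0 with scaling to total counts, and miR-10b-3p ran from -1.15 to 0.56 when 1 library was left out, above 0 without spinal cord.

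When 1 library was left out, the 5p share difference ran from -1.17 to -0.70 points for mir-10a in embryos, -0.81 to -0.67 for mir-10b in embryos, -1.18 to -0.71 for mir-10b in the head and -0.37 to 0.11 for mir-10a in the head, the last above 0 without brain. As mean log2 ratios the first 3 were -0.67, -1.13 and -1.42 and no longer passed. Without testis and smooth muscle they were -0.87, -0.78 and -1.02 points, with an adjusted exact p of 0.05 each, not under the threshold. The miR-10a share difference ran from -49.0 to -34.2 points for 5p reads in the head and from -32.8 to -19.6 points for 3p reads in embryos. The miR-196a share difference in embryos ran from -17.8 to -0.21 points and was 0.19 points without testis and smooth muscle. Causes were not tested. No paired analysis was made, since each tissue or stage was 1 library and the labels give no number of animals. Depth limits the rare strands: 8 libraries had fewer than 10 reads of miR-10b-3p, 7 of miR-196a-5p, 6 of miR-196b-5p and 7 of miR-615-3p.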
